A study of Homo sapiens with 21 samples.

Results

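HEXIM1, LARP7, MEPCE, BRD2, BRD3, AFF1, AFF4, ELL and ELL2 encode regulators of the kinase P-TEFb, BET bromodomain proteins and scaffolds and partners of the super elongation complex. These 9 genes were taken by symbol from the array platform's annotation, out of 18132 genes that it names, and are followed here across 4 human breast cancer cell lines given the solvent or 1 of 2 doses of THZ1, a covalent CDK7 inhibitor. The series concerns the dependence of triple-negative breast cancer on CDK7. RNA was measured on 21 Affymetrix PrimeView arrays after 6 h with the solvent DMSO, 50 nM THZ1 or 250 nM THZ1. MDA-MB-468 and BT-549 are labelled triple-negative, ZR-75-1 oestrogen receptor positive (ER+) and T47D positive for oestrogen and progesterone receptors. All were grown in RPMI-1640 medium with serum. Each dose has 2 arrays in every line but BT-549, whose single arrays give values with no test and no error.

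RNA polymerase II pauses shortly after it starts a gene, and P-TEFb, the kinase CDK9 with a cyclin T, releases it. Most P-TEFb of a cell is held inactive on the 7SK RNA by HEXIM1, while LARP7 and MEPCE bind and cap that RNA. BET proteins bind acetylated histones, and the super elongation complex, built on AFF1 or AFF4 with ELL or ELL2, brings P-TEFb to genes. HEXIM1 transcription is widely used as a readout of drugs that disturb this balance, such as BET inhibitors.

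In GRCh38.p14, HEXIM1 lies at chr17:45148475-45152099 and MEPCE at chr7:100428790-100434118, both on the forward strand. RefSeq promoter windows (250 bases before to 50 after a start) matched 8 of the 9 genes, with 15 starts. The bases from 100 before to 10 after the start are shown for HEXIM1, MEPCE and BRD2 (first of its starts, gene at chr6:32968594-32981505, forward strand). On the probe sets with the highest level, HEXIM1 and MEPCE fell most of the 9 over the 4 lines at 250 nM. BRD2 rose at 50 nM in the 3 lines with replicates. Capitals mark the TATA-box form TATATAA or its shorter relative TATAAA, which overlap in HEXIM1, as well as the element CCAAT and the GC box GGGCGG, on either strand.
HEXIM1, chr17:45148375-45148484: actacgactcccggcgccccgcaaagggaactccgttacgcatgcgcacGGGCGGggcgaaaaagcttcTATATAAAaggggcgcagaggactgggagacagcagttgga
MEPCE, chr7:100428690-100428799: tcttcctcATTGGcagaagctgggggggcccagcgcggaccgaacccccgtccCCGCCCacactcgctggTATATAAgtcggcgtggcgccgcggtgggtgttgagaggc
BRD2, chr6:32968494-32968603: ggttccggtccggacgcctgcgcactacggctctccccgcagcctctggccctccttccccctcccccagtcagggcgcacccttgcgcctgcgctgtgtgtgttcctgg

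A TATATAA began 31 bases before the HEXIM1 start and 30 bases before this MEPCE start. Within 40 to 16 bases before a start and on its own strand, 2 of the 15 windows held TATATAA, against 0.592% of 35116 RefSeq promoters, in a span chosen after the matches were seen. Over the whole 300 bases and both strands, TATATAA was in 2.57% of promoters and TATAAA in 11.5%, and the other 13 windows, BRD2's among them, held neither. CCAAT was in 5 of the 15 windows and in 34.6% of all, and GGGCGG in 13 of the 15 and in 45.0% of all. These are matches of letters only.

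Array means were alike (326.4 to 342.8), the 75th percentile of intensity ran from 140.3 to 231.2, and r between arrays of a group was 0.9941 to 0.9965 over the 12644 genes tested below. Nothing in the labels makes the replicates separate cultures. The p-values then cover only array-to-array spread, possibly technical, and so few arrays limit the precision. One label field calls the ZR-75-1 and T47D samples MDA-MB-468. The median log2 level of 6 luminal markers with DMSO was 12.94 in ZR-75-1 and 12.21 in T47D, against 8.27 in MDA-MB-468 and 5.51 in BT-549, as the titles have it. A list of 9 immune and stromal markers had medians of 4.90 to 6.21 on all arrays. RNA of a fixed mass was amplified, so less RNA per cell, or fewer cells, cannot be told apart from no change. The spike-in that the protocol describes was not analysed here.

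**Figure D1:**
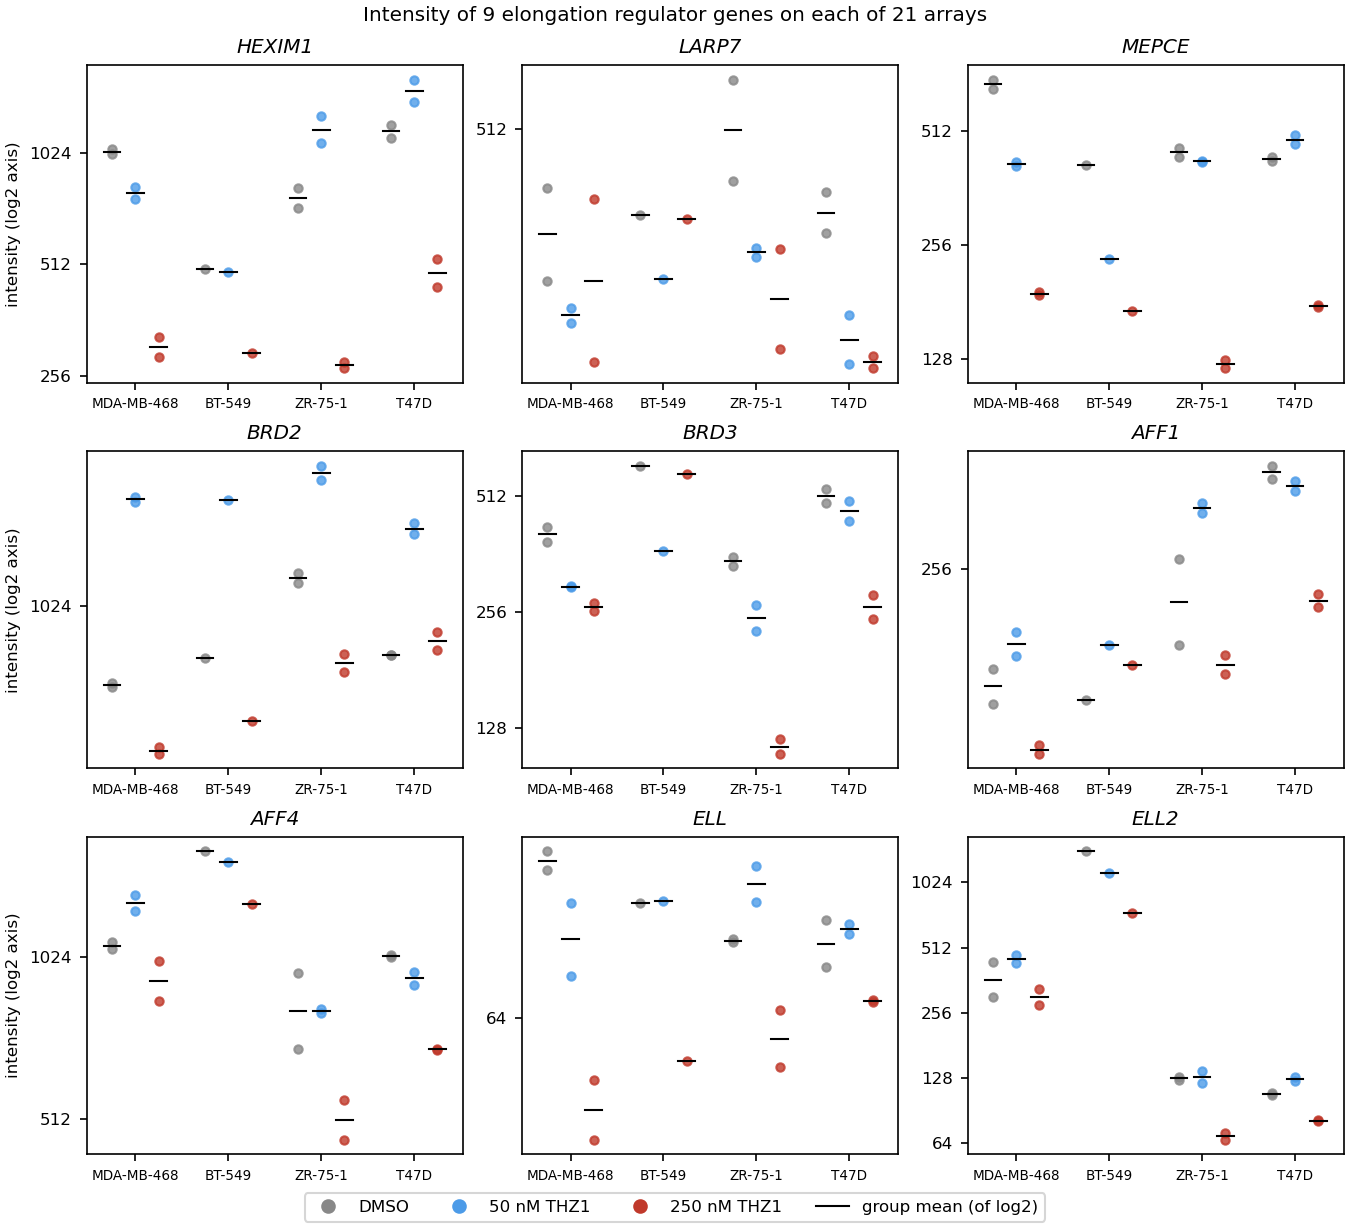
Intensity (log2 axis) of the 9 genes on each of the 21 arrays, by cell line, with DMSO in grey, 50 nM THZ1 in blue and 250 nM in red, and a bar at each group's mean of log2 values. BRD2 is highest at 50 nM in all 4 lines, HEXIM1 and MEPCE are lowest at 250 nM in all 4, and ELL2 differs most between lines.

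Changes below are differences of log2 intensity with their SE from limma, and a call means an adjusted p (Benjamini-Hochberg over 12644 genes) under 0.05. At 250 nM against DMSO, 5 of the 9 genes were called lower in MDA-MB-468 (30.3% of all genes tested there), 9 in ZR-75-1 (42.8%) and 7 in T47D (33.7%). None of the 9 was called higher, also at an unadjusted p under 0.05, against 9.54%, 9.93% and 9.61% of all genes. The median change of the 9 was -0.39, -0.67 and -0.53, and that of all genes -0.07, -0.18 and -0.08. Centring each array on its median moved the latter to 0.13, 0.07 and 0.05, and 2757, 3998 and 3295 genes were then lower and 3466, 3567 and 2440 higher, in place of 3834, 5406 and 4256 lower and 1206, 1256 and 1215 higher. At 50 nM, 3 were lower and 1 higher in MDA-MB-468 (14.6% and 4.42% of all genes), 1 lower and 3 higher in ZR-75-1 (5.68% and 2.79%), and 0 lower and 2 higher in T47D (7.56% and 1.99%). In T47D, 1 was lower and 3 higher at an unadjusted p under 0.05. For MDA-MB-468 at 50 nM, centring moved the split over all genes from 1844 lower and 559 higher to 1067 and 1628. HEXIM1, MEPCE and BRD3 were called lower at 250 nM in all 3 lines with replicates, as were 23.0% of all genes, and none of the 9 was called higher in all 3 (3.59% of all genes). BRD2 was called higher at 50 nM in all 3, as were 66 of 12644 genes (0.522%), and none was called lower in all 3 (2.83%).

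**Figure D2:**
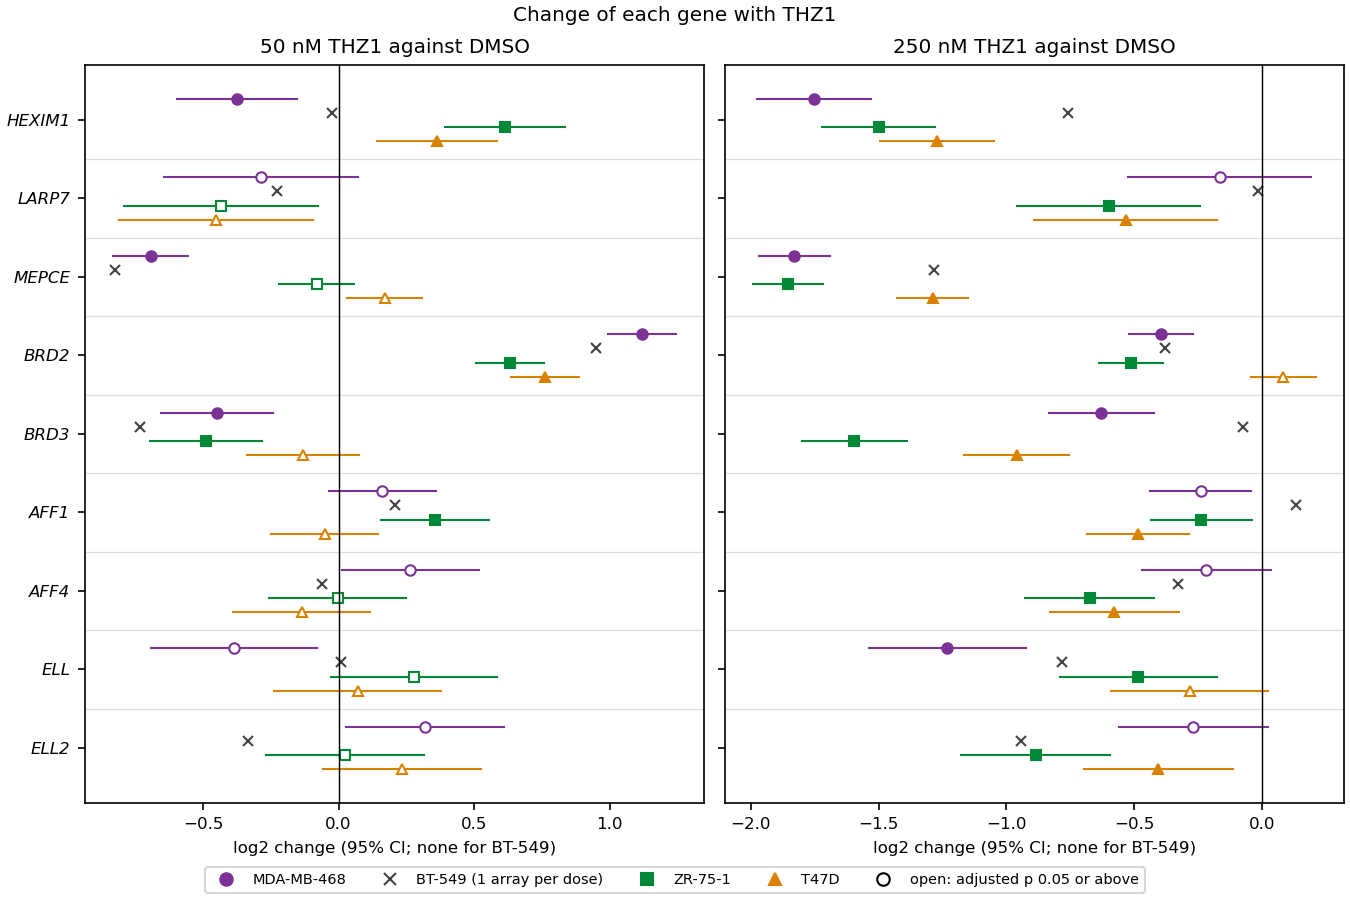
Log2 change against DMSO at 50 nM (left) and 250 nM THZ1 (right) for each gene, with 95% confidence intervals for MDA-MB-468 (circles), ZR-75-1 (squares) and T47D (triangles) and single values for BT-549 (crosses). Filled symbols have an adjusted p under 0.05. BRD2 is right of 0 in every line at 50 nM, and HEXIM1 and MEPCE are left of 0 in every line at 250 nM.

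HEXIM1, the P-TEFb inhibitor, moved in opposite directions at 50 nM and fell at 250 nM in the 3 lines with replicates, on the probe set with the highest level, which stands for the gene. In MDA-MB-468 its intensities were 1014 and 1049 with DMSO, 826 and 767 at 50 nM, and 326 and 287 at 250 nM. In ZR-75-1 they were 821 and 727, then 1287 and 1086, then 278 and 268. In T47D they were 1217 and 1124, then 1403 and 1615, then 444 and 528. Both arrays at 50 nM were below both DMSO arrays in MDA-MB-468 and above them in ZR-75-1 and T47D, and no 250 nM array overlapped another dose of its line. The share of all genes with no such overlap was not counted, here or for the genes below. BT-549 went from 497 to 488 and 294.

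At 250 nM HEXIM1 was 3.37-fold lower in MDA-MB-468 (-1.75 ± 0.10 on the log2 scale, limma adjusted p = 1.1e-09, with n = 2 in each group), 2.83-fold in ZR-75-1 (-1.50 ± 0.10) and 2.42-fold in T47D (-1.27 ± 0.10). BT-549 was at -0.76 at that dose. At 50 nM it rose 1.53-fold in ZR-75-1 (0.61 ± 0.10, limma adjusted p = 0.00181) and 1.29-fold in T47D (0.36 ± 0.10, limma adjusted p = 0.0387), and fell 1.3-fold in MDA-MB-468 (-0.37 ± 0.10, limma adjusted p = 0.0196). The change at 50 nM in MDA-MB-468 minus the mean of the ER+ lines was -0.86 ± 0.13 (limma adjusted p = 0.00185). At 250 nM it was -0.37 ± 0.13, which missed the threshold (limma adjusted p = 0.0575). It was not called in 18 of 26 alternatives and was called in the others, with the mean of all probe sets (-0.62), quantile normalization (-0.51), the replicate number as a block (-0.37), and without MDA-MB-468 250 nM array 1 (-0.46), ZR-75-1 DMSO array 1 (-0.41), either ZR-75-1 50 nM array (both -0.37) or T47D 250 nM array 1 (-0.43). BT-549, the other triple-negative line, was at -0.03 at 50 nM. The call at 50 nM in MDA-MB-468 ended with arrays centred on their medians (-0.23), with the mean of all probe sets (-0.02), without either DMSO array (-0.40 without 1, -0.35 without 2) and without 50 nM array 2 (-0.32). That in T47D ended without either DMSO array (0.42 without 1, 0.31 without 2), without 50 nM array 2 (0.26) or the MDA-MB-468 50 nM array 1, and with eBayes without a trend (both 0.36).

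The 5 HEXIM1 probe sets differed. The size of its fall at 250 nM, and in the ER+ lines and BT-549 whether it fell at all, depends on which is read. Probe sets 11721003_at and 11721004_x_at fell at 250 nM in all 3 lines, the first by -1.25 ± 0.09 in MDA-MB-468, -0.99 ± 0.09 in ZR-75-1 and -0.87 ± 0.09 in T47D. The second stands for the gene above, and its suffix marks probes that the manufacturer lists as shared with other sequences. Probe sets 11721000_at, 11721001_at and 11721002_s_at fell less in MDA-MB-468 at 250 nM (-0.84, -0.47 and -0.60). In ZR-75-1 they stood at -0.03, 0.32 and 0.22 and in T47D at 0.20, 0.21 and 0.04, of which 11721001_at in ZR-75-1 was called higher (limma adjusted p = 0.0401). On the single BT-549 arrays they stood at -0.27, 0.43 and 0.07 at 250 nM.

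At 50 nM the same 3 probe sets rose further, by 1.36, 1.58 and 1.55 in ZR-75-1 and 1.24, 1.17 and 1.14 in T47D, with 0.18, 0.25 and 0.11 in MDA-MB-468 and 0.66, 0.84 and 0.82 in BT-549. On 11721001_at, the ZR-75-1 arrays read 133 and 128 with DMSO, 427 and 355 at 50 nM, and 169 and 157 at 250 nM. The MDA-MB-468 arrays read 155 and 159, then 208 and 168, then 112 and 114. All 5 probe sets were higher at 50 nM in both ER+ lines and lower at 250 than at 50 nM in all 3 lines. With the mean of the 5 probe sets, HEXIM1 was at -0.98 in MDA-MB-468, -0.40 in ZR-75-1 and -0.34 in T47D at 250 nM, each still called lower, and at 1.11 and 0.85 in ZR-75-1 and T47D at 50 nM. Where in the transcript each probe set lies was not analysed here.

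**Figure D3:**
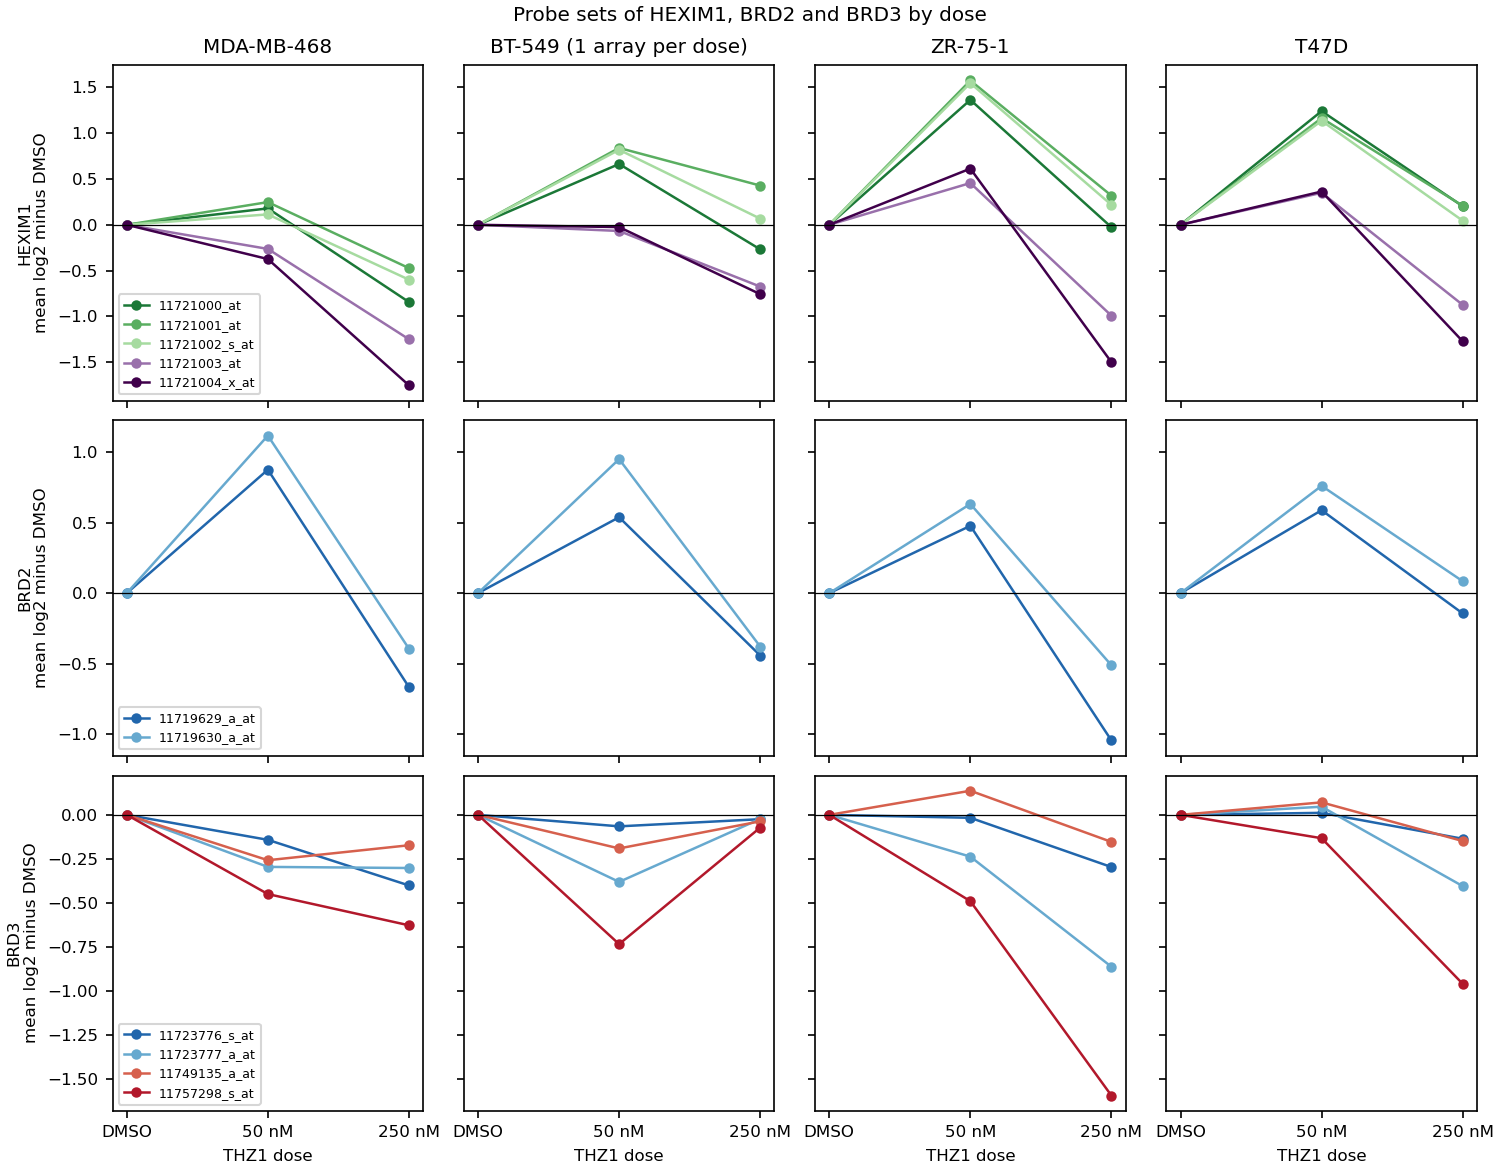
Mean log2 level minus the DMSO mean at each dose for all probe sets of HEXIM1 (top), BRD2 (middle) and BRD3 (bottom), in 4 cell lines. The HEXIM1 probe sets 11721000_at to 11721002_s_at (green) rise at 50 nM in ZR-75-1 and T47D by 1.14 to 1.58 and return close to 0 at 250 nM, while the others (purple) end below 0; both BRD2 probe sets peak at 50 nM.

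MEPCE, the methyltransferase that caps 7SK RNA, fell 3.56-fold in MDA-MB-468, 3.62-fold in ZR-75-1 and 2.44-fold in T47D at 250 nM. Its single probe set in MDA-MB-468 read 699 and 659.5 with DMSO, 414 and 425 at 50 nM and 192 and 189.5 at 250 nM. ZR-75-1 read 438 and 462, then 424 and 427, then 128 and 121, and T47D 426 and 438, then 499 and 473, then 176 and 178. BT-549 read 417, 235 and 171. The arrays of different doses did not overlap in any of the 3 lines, although the steps at 50 nM in the ER+ lines were small.

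The changes at 250 nM were -1.83 ± 0.06 in MDA-MB-468 (limma adjusted p = 3.35e-12), -1.85 ± 0.06 in ZR-75-1 and -1.29 ± 0.06 in T47D, with -1.28 in BT-549. There MEPCE alone of the 9 was at least 2-fold lower, as were 8.94% of all genes. At 50 nM in BT-549 none of the 9 was (3.24% of all genes), and none was at least 2-fold higher at 50 or 250 nM (0.174% and 0.182%). All 27 or 28 alternatives run per line kept these 3 calls. At 50 nM MEPCE was already lower in MDA-MB-468 (-0.69 ± 0.06, limma adjusted p = 2.25e-06) and stood at -0.82 in BT-549, against -0.08 ± 0.06 in ZR-75-1 and 0.17 ± 0.06 in T47D, which did not pass, although quantile normalization called the T47D value higher (0.26). The response of MDA-MB-468 minus that of the ER+ lines was -0.74 ± 0.08 at 50 nM (limma adjusted p = 0.000358). At 250 nM it was -0.26 ± 0.08 (limma adjusted p = 0.0327), a call kept under 16 of 26 alternatives. It ended after median-centring (-0.24, limma adjusted p = 0.142), with no level filter or with the replicate number as a block (both -0.26), without MDA-MB-468 DMSO array 1 (-0.22) or either of its 250 nM arrays (-0.27 and -0.25), without array 1 of ZR-75-1 DMSO or 250 nM (both -0.24), and without T47D DMSO array 1 or 250 nM array 2 (both -0.25). ZR-75-1 fell further than T47D at 250 nM (-0.57 ± 0.09, limma adjusted p = 0.000314).

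LARP7, which stabilises 7SK RNA, had smaller changes. Its intensity fell at 250 nM from 514 ± 90.7 to 339 ± 58.6 in ZR-75-1 (-0.60 ± 0.17, limma adjusted p = 0.00649) and from 416 ± 30.0 to 288 ± 6.02 in T47D (-0.53 ± 0.17, limma adjusted p = 0.0177; SD, n = 2). In MDA-MB-468 the arrays overlapped, at 351 and 443 with DMSO and 288 and 430.0 at 250 nM (-0.16 ± 0.17, limma adjusted p = 0.49), and BT-549 was at -0.02. LARP7 did not pass at 50 nM in any line, with -0.29 in MDA-MB-468, -0.43 in ZR-75-1 and -0.45 in T47D. It was called lower there with the mean of its probe sets in MDA-MB-468 (-0.29) and T47D (-0.33), and in T47D also with only that line's 6 arrays or the replicate number as a block (both -0.45). The ZR-75-1 call ended with quantile normalization (-0.22), median-centring (-0.35), and without DMSO array 1 or 250 nM array 2 (both -0.42). The T47D call ended with quantile normalization (-0.26) and without DMSO array 2 (-0.46), 250 nM array 1 (-0.51) or 250 nM array 2 (-0.55), while all 5 LARP7 probe sets were called lower in both lines.

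BRD2, a BET protein that binds acetylated histone H4, rose at 50 nM in the 3 lines with replicates, read 1.93-fold higher in BT-549, and lost that rise at 250 nM. MDA-MB-468 read 728 and 742 with DMSO, 1613 and 1580.4 at 50 nM and 567 and 552 at 250 nM. ZR-75-1 read 1126 and 1176, then 1839 and 1732, then 777 and 838. T47D read 834 on both arrays, then 1445 and 1384, then 917 and 852, and BT-549 read 825, 1596 and 634. All 50 nM arrays were above all DMSO and 250 nM arrays of their line.

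The rise at 50 nM was 2.17-fold in MDA-MB-468 (1.12 ± 0.06, limma adjusted p = 1.24e-08), 1.55-fold in ZR-75-1 (0.63 ± 0.06) and 1.7-fold in T47D (0.76 ± 0.06), with 0.95 in BT-549. Among 12644 genes, BRD2 ranked 10 from the top by this change in MDA-MB-468, 29 in BT-549, 48 in ZR-75-1 and 41 in T47D. It rose more in MDA-MB-468 than in the ER+ lines (0.42 ± 0.07, limma adjusted p = 0.0052). Over the 4 lines, BRD2 was the only one of the 9 genes called at 50 nM (0.87 ± 0.12, limma adjusted p = 0.0332), where 0.182% of all genes were called higher and 0.316% lower. That call ended without MDA-MB-468 (0.78), BT-549 (0.84) or T47D (0.90).

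From 50 to 250 nM BRD2 fell by 1.51, 1.15 and 0.68 on the log2 scale, in the order MDA-MB-468, then ZR-75-1, then T47D. It ended below DMSO in MDA-MB-468 (-0.39 ± 0.06, limma adjusted p = 4.66e-05) and ZR-75-1 (-0.51 ± 0.06, limma adjusted p = 1.51e-06), and not in T47D (0.08 ± 0.06, limma adjusted p = 0.275). ZR-75-1 and T47D differed in this (-0.60 ± 0.08, limma adjusted p = 8.49e-05). Median-centring ended the call below DMSO in MDA-MB-468 (-0.19, limma adjusted p = 0.0837), and quantile normalization called BRD2 higher in T47D (0.22). Its other probe set, 11719629_a_at, was called in the same direction at 50 nM in the 3 lines (0.88, 0.48 and 0.59) and at 250 nM in MDA-MB-468 (-0.67) and ZR-75-1 (-1.05).

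BRD3, the other BET gene here, did not share the rise. MDA-MB-468 read 389 and 426 with DMSO, 298 on both arrays at 50 nM, and 270.0 and 258 at 250 nM. ZR-75-1 read 356 and 337, then 228 and 267, then 119.8 and 109.8, and T47D 492 and 536, then 497 and 441, then 246 and 283. In BT-549 it read 614, 369 and 584, so that the 250 nM array was close to DMSO. The 250 nM arrays were below all DMSO arrays in the 3 lines with replicates, and doses overlapped only between DMSO and 50 nM in T47D.

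BRD3 fell at 250 nM by 3.02-fold in ZR-75-1 (-1.60 ± 0.10, limma adjusted p = 7.09e-10), 1.95-fold in T47D (-0.96 ± 0.10) and 1.54-fold in MDA-MB-468 (-0.63 ± 0.10). It fell less in MDA-MB-468 than in the ER+ lines (difference 0.65 ± 0.12, limma adjusted p = 0.00126) and more in ZR-75-1 than in T47D (-0.64 ± 0.14, limma adjusted p = 0.00303). At 50 nM it was lower in MDA-MB-468 (-0.45 ± 0.10) and ZR-75-1 (-0.49 ± 0.10), the latter not without ZR-75-1 50 nM array 1 (-0.38). Its 3 other probe sets changed less at 250 nM, from -0.15 to -0.86 in ZR-75-1. The next brightest, 11723777_a_at, was at -0.86 in ZR-75-1, -0.40 in T47D and -0.30 in MDA-MB-468. Of all 4 probe sets, 2 were called lower at 250 nM in ZR-75-1, 2 in T47D and 3 in MDA-MB-468. With the mean of all 4, the ZR-75-1 call at 50 nM (-0.15) and both differences between lines (0.19 and -0.31) did not pass.

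The super elongation scaffolds AFF1 and AFF4 changed by less than 2-fold throughout. AFF4 read 1025 and 1033 with DMSO and 688 and 692 at 250 nM in T47D (-0.58 ± 0.12, limma adjusted p = 0.000901). In ZR-75-1 it read 959 and 693, then 557 and 469 at 250 nM (-0.67 ± 0.12, limma adjusted p = 0.000141). In MDA-MB-468 it read 1060.1 and 1091 with DMSO and 849.7 and 1008 at 250 nM (-0.22 ± 0.12, limma adjusted p = 0.17), and BT-549 was at -0.33. The 250 nM arrays were below the DMSO arrays in the 3 lines, also in MDA-MB-468, where the change was not called. Of its 6 probe sets 3 passed the level filter, and 11720421_at was called lower in MDA-MB-468 (-0.65) and ZR-75-1 (-0.66) and stood at 0.02 in T47D. With the mean of all probe sets AFF4 was at -0.19 in ZR-75-1 and 0.04 in T47D at 250 nM, and neither passed. The MDA-MB-468 change at 250 nM minus that of the ER+ lines was 0.41 ± 0.15 (limma adjusted p = 0.0636), uncalled under 21 of 26 alternatives. At 50 nM AFF4 was not called, at 0.26 ± 0.12 in MDA-MB-468, -0.0026 ± 0.12 in ZR-75-1, -0.14 ± 0.12 in T47D and -0.06 in BT-549. Median-centring called the MDA-MB-468 value higher (0.40).

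AFF1 read 324 and 335 with DMSO in T47D and 239 and 232 at 250 nM (-0.48 ± 0.09, limma adjusted p = 0.000497), a call that ended with quantile normalization (-0.19) and with the mean of its 6 probe sets (-0.05). In ZR-75-1 its DMSO arrays lay apart, at 263 and 209.6, with 304 and 296 at 50 nM (0.36 ± 0.09, limma adjusted p = 0.0272) and 204 and 194 at 250 nM (-0.24 ± 0.09, limma adjusted p = 0.044). The call at 50 nM ended without DMSO array 2 (0.19), without either 50 nM array (0.34 and 0.37), with only the line's 6 arrays (0.36) and with the mean of all probe sets (0.08). That at 250 nM ended without DMSO array 1 (-0.07) and under most other alternatives, and its sign turned with median-centring (0.01) and quantile normalization (0.24, called). MDA-MB-468 was at 0.16 ± 0.09 at 50 nM and -0.24 ± 0.09 at 250 nM, which did not pass, and BT-549 at 0.21 and 0.13. Median-centring (0.30) and quantile normalization (0.27) called AFF1 higher in MDA-MB-468 at 50 nM. At 250 nM it stayed uncalled there under 23 of 27 alternatives and was called lower under the others, among them the replicate number as a block (-0.24). Only 1 of 6 AFF1 probe sets passed the level filter.

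ELL and ELL2 encode elongation factors that raise the rate of the polymerase. ELL, at low intensity, read 106 and 113 with DMSO, 74.0 and 95.1 at 50 nM, and 42.2 and 51.8 at 250 nM in MDA-MB-468. It fell there 2.35-fold at 250 nM (-1.23 ± 0.14, limma adjusted p = 3.18e-06), with -0.48 ± 0.14 in ZR-75-1 (limma adjusted p = 0.00973), -0.28 ± 0.14 in T47D (limma adjusted p = 0.131) and -0.78 in BT-549. The difference of MDA-MB-468 from the ER+ lines was -0.85 ± 0.18 (limma adjusted p = 0.00326). The ZR-75-1 call ended with median-centring (-0.23), quantile normalization (-0.15) and without 250 nM array 1 (-0.34), and the other tested probe set of ELL read -0.48 in MDA-MB-468, -0.61 in ZR-75-1 and 0.26 in T47D.

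ELL2 fell at 250 nM in ZR-75-1, from 129 and 126 to 66.4 and 71.8 (-0.89 ± 0.14, limma adjusted p = 3.8e-05). In T47D it went from 109 and 107 to 80.8 and 82.0 (-0.40 ± 0.14, limma adjusted p = 0.0256). MDA-MB-468 overlapped, at 439 and 302 with DMSO and 330.2 and 277 at 250 nM (-0.27 ± 0.14, limma adjusted p = 0.139), a change that was called without DMSO array 2 (-0.54). BT-549 went from 1424 to 1131 and 741, or -0.94. The T47D call ended with median-centring (-0.28), quantile normalization (-0.17) and without any 1 of its DMSO or 250 nM arrays (-0.39 to -0.42). Neither ELL nor ELL2 was called at 50 nM. In MDA-MB-468 ELL stood at -0.39 there, called without 50 nM array 2 (-0.57), and ELL2 at 0.32, called without DMSO array 1 (0.59) and with median-centring (0.46).

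With DMSO, levels of most of the 9 genes differed between lines, as for most genes. MDA-MB-468 was lower than ZR-75-1 for 2 and higher for 6 (30.5% and 35.5% of all genes), and lower than T47D for 3 and higher for 3 (36.8% and 30.8%). ZR-75-1 was lower than T47D for 4 and higher for 1 (37.1% and 25.9%). The widest gap was that of ELL2, whose intensity ran from 1424 in BT-549 through 371 ± 96.4 in MDA-MB-468 and 128 ± 2.06 in ZR-75-1 to 108 ± 1.51, the T47D value (SD, n = 2). MDA-MB-468 exceeded ZR-75-1 by 1.51 ± 0.14 and T47D by 1.76 ± 0.14 (SE, limma adjusted p = 6.53e-08 and 9.32e-09), and the ER+ lines did not differ beyond their error (0.24 ± 0.14). All 5 ELL2 probe sets read highest in BT-549, next in MDA-MB-468 and lower in both ER+ lines.

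HEXIM1 stood at 1171 ± 65.9 in T47D, 1032 ± 24.8 in MDA-MB-468, 774 ± 66.5 in ZR-75-1 and 497 in BT-549, and the first 2 did not differ beyond their error (-0.18 ± 0.10, limma adjusted p = 0.137). MEPCE was highest in MDA-MB-468 (679 ± 27.9), with ZR-75-1 (450.1 ± 17.4), T47D (432 ± 8.66) and BT-549 (417) together. BRD2 was highest in ZR-75-1 (1151 ± 35.8), then T47D (834 ± 0.395), BT-549 (825) and MDA-MB-468 (735 ± 9.62). BRD3 ran from 614 in BT-549 through 514 ± 31.1 in T47D and 408 ± 26.3 in MDA-MB-468 to 347 ± 13.7 in ZR-75-1. AFF4 was at 1609 in BT-549, 1076 ± 22.1 in MDA-MB-468, 1029 ± 5.41 in T47D and 826 ± 188 in ZR-75-1, AFF1 highest in T47D (329.6 ± 8.25) and lowest in BT-549 (182), and ELL highest in MDA-MB-468 (109.7 ± 5.03). LARP7 lay between 397 ± 64.6 and 514 ± 90.7, with no difference between lines called in the main fit. Its MDA-MB-468 minus ZR-75-1 difference stayed uncalled under 19 of 26 alternatives. It was called lower under the others, among them median-centring (-0.48) and quantile normalization (-0.52). Both also called LARP7 higher for ZR-75-1 minus T47D (0.39 and 0.47). With the mean of all probe sets, the AFF1 calls ended for MDA-MB-468 minus ZR-75-1 (-0.09) or T47D (-0.15) and ZR-75-1 minus T47D (-0.07). The ELL and BRD3 calls then ended for MDA-MB-468 minus ZR-75-1 (0.12 and 0.18) and minus T47D (0.22 and -0.15). The AFF4 calls ended for MDA-MB-468 minus ZR-75-1 (0.15) and ZR-75-1 minus T47D (0.0087), and LARP7 was called for the latter (0.30). Scaling moved calls too. BRD3 for MDA-MB-468 minus ZR-75-1 kept its call under 13 of 26 alternatives, and not with median-centring (0.13) or quantile normalization (0.11). ELL for that pair kept it under 20 of 26, and not with these scalings (0.29 and 0.24). AFF4 for ZR-75-1 minus T47D also kept it under 20 of 26, and not with them (-0.24 and -0.25).

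Tested as differences between lines, the responses at 50 nM were lower in MDA-MB-468 than in the ER+ mean for 2 of the 9 genes (HEXIM1 and MEPCE, against 2.48% of all genes) and higher for BRD2 (0.403%). Between ZR-75-1 and T47D none of the 9 differed there, where 0.0870% of all genes were lower and 0.127% higher. At 250 nM, 2 were lower in MDA-MB-468 (ELL and MEPCE, against 5.12%) and BRD3 was higher (13.9%). ZR-75-1 was lower than T47D for BRD2, BRD3 and MEPCE (19.8%) and higher for none (2.44%).

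From 50 to 250 nM, 7 of the 9 genes fell in MDA-MB-468, 8 in ZR-75-1 and 7 in T47D (23.2%, 41.7% and 27.2% of all genes), and none rose (5.73%, 6.64% and 4.59%). AFF1, AFF4, BRD2, ELL2, HEXIM1 and MEPCE fell in all 3, as did 17.3% of all genes, while 0.886% of all genes rose in all 3. HEXIM1 dropped most in ZR-75-1, by 4.33-fold (-2.11 ± 0.10), with -1.38 ± 0.10 in MDA-MB-468 and -1.64 ± 0.10 in T47D. MEPCE changed by -1.14, -1.77 and -1.46 (SE 0.06 each). The AFF1 calls ended with the mean of its probe sets in the 3 lines (-0.04, -0.25 and -0.02), and with quantile normalization in MDA-MB-468 (-0.19) and ZR-75-1 (-0.14). The AFF4 call in MDA-MB-468 ended without 50 nM array 2 (-0.43) or 250 nM array 1 (-0.36), that in T47D without 50 nM array 1 (-0.40) and with the mean of its probe sets (-0.04), and the ELL2 call in MDA-MB-468 without 250 nM array 2 (-0.46). Over the 4 lines at 250 nM against DMSO, 7 genes were called lower (29.9% of all genes) and 0 higher (9.48%). The 7 were MEPCE (-1.56 ± 0.20, limma adjusted p = 0.000401), HEXIM1 (-1.32 ± 0.20), BRD3 (-0.81 ± 0.25), ELL (-0.70 ± 0.14), ELL2 (-0.63 ± 0.12), AFF4 (-0.45 ± 0.09) and LARP7 (-0.33 ± 0.10). BRD3 and LARP7 lost that call without MDA-MB-468, ZR-75-1 or T47D (BRD3 -0.88, -0.55 and -0.77, LARP7 -0.38, -0.24 and -0.26). LARP7 lost it also with median-centring (-0.17) and quantile normalization (-0.07). The HEXIM1 value is that of its probe set with the highest level, and the mean of probe sets was not run over the 4 lines.

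Of 48 further elongation genes listed beside the 9, 45 were in the annotation and 42 passed the level filter. At 250 nM, 20 were called lower in MDA-MB-468, 27 in ZR-75-1 and 23 in T47D, with 2, 4 and 2 higher, and their median change was -0.19, -0.50 and -0.28. At 50 nM 3 were lower in each line, and 4, 1 and 0 higher, against the shares of all genes given above. The kinase CDK9 itself fell at 250 nM by -0.78 ± 0.09 in MDA-MB-468, -1.15 ± 0.09 in ZR-75-1 and -0.43 ± 0.09 in T47D. Its cyclin CCNT1 fell in MDA-MB-468 (-0.37 ± 0.10) and ZR-75-1 (-0.45 ± 0.10), with -0.18 ± 0.10 in T47D. The cyclin CCNT2 was higher at 50 nM in MDA-MB-468 (0.56 ± 0.14), with 0.57 in BT-549 and 0.35 ± 0.14, not called, in T47D, and passed in no line at 250 nM.

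JMJD6, an oxygenase of the JmjC family, fell at both doses in the 3 lines. Its intensity went from 321 ± 10.1 to 121 ± 0.172 and 57.7 ± 5.18 in MDA-MB-468 (SD, n = 2), with -2.48 at 250 nM in MDA-MB-468, -2.21 in ZR-75-1 and -2.34 in T47D (SE 0.10 each), and -1.43 in BT-549. HEXIM2, the paralog of HEXIM1, fell at 250 nM by -1.39, -1.33 and -2.25 (SE 0.15 each), and was lower already at 50 nM in MDA-MB-468 (-1.23 ± 0.15) and T47D (-1.02 ± 0.15), with 0.02 at 250 nM in BT-549. Its intensities at 250 nM were low (41.9, 34.1 and 54.7), under the level filter of 57.4. BT-549 was under it already with DMSO (37.1, and 37.5 at 250 nM), so its 0.02 cannot show whether HEXIM2 changed there. IWS1, a partner of the histone chaperone SPT6, was at -1.43, -2.11 and -0.96 (SE 0.09 each). LEO1 and RTF1 of the PAF1 complex fell in all 3 lines, LEO1 by -1.02, -1.50 and -0.58 and RTF1 by -0.47, -0.96 and -0.23. MLLT1, a reader subunit of the super elongation complex, fell in ZR-75-1 (-1.27 ± 0.09) and MDA-MB-468 (-0.25 ± 0.09), with -0.21 ± 0.09, not called, in T47D. ZC3H8 of the little elongation complex fell in ZR-75-1 (-0.68 ± 0.07) and T47D (-0.87 ± 0.07) and was at -0.07 ± 0.07 in MDA-MB-468.

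**Figure D4:**
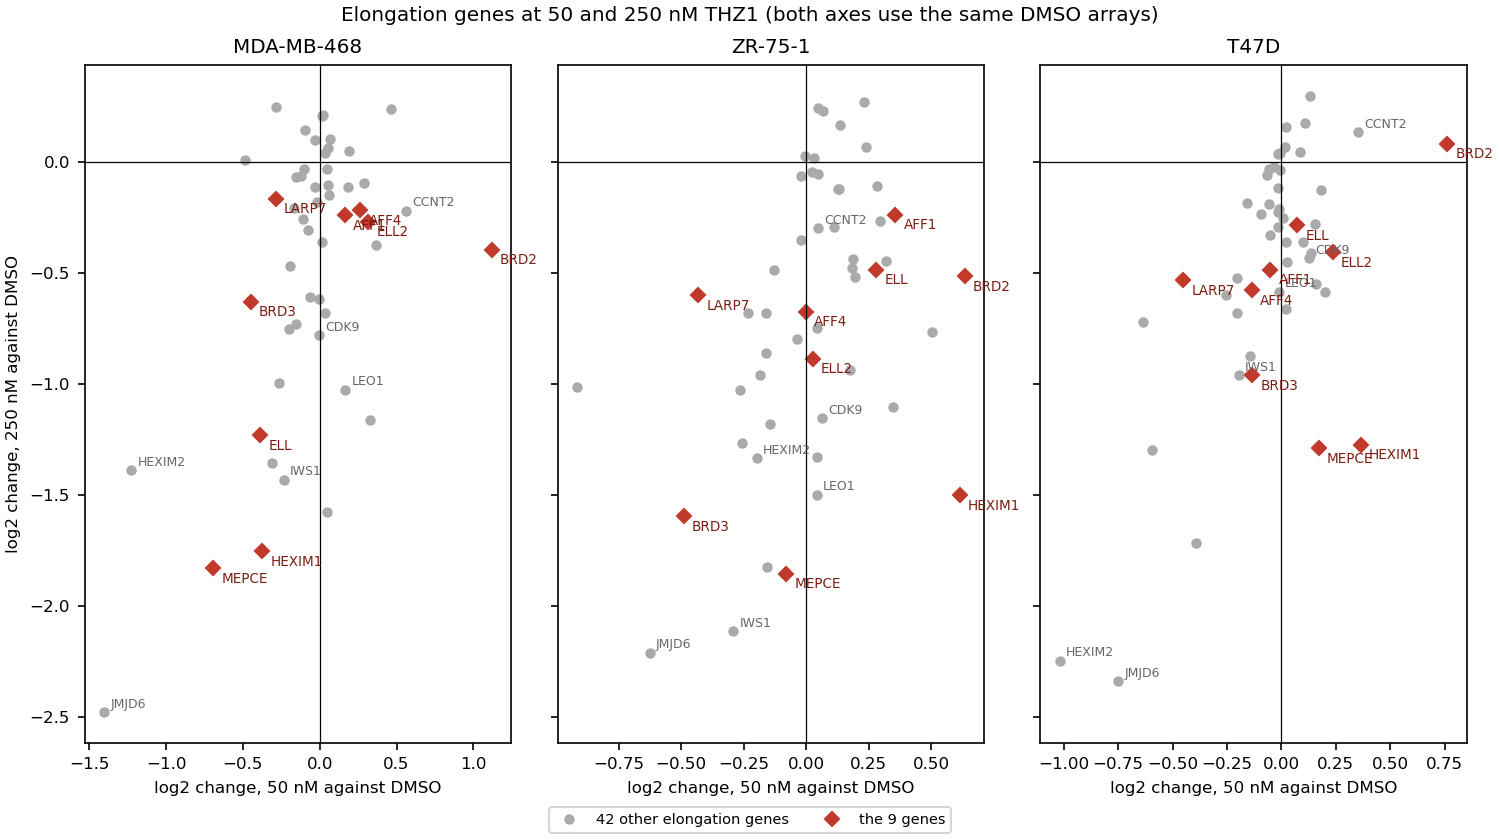
Log2 change at 250 nM (vertical) against that at 50 nM (horizontal) for the 9 genes (red diamonds) and 42 other elongation genes (grey circles) in the 3 lines with replicates; both axes use the same DMSO arrays. BRD2 lies farthest right in each panel, and JMJD6 lies lowest.

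As a description, the 9 profiles were compared over the 12 means of line and dose, with each line's mean subtracted, so that dose steps shared by many genes enter every r. On each gene's probe set with the highest level, HEXIM1 and MEPCE were alike (r = 0.95), and ELL2 and AFF4 too (0.91). Of all genes, 5.39% exceeded 0.9 with ELL2 and 6.55% with AFF4. BRD2 was unlike BRD3 (0.07) and LARP7 (-0.30). The other HEXIM1 probe sets were not compared in this way, and they differ in shape. In ZR-75-1, 11721001_at stood at 1.58 at 50 nM and 0.32 at 250 nM, and 11721003_at at 0.46 and -0.99. MEPCE stood there at -0.08 and -1.85. The 3 genes most like HEXIM1 were RAPGEF6 (r = 0.99), AQP11 (0.98) and TTC9 (0.98), where 8.19% of all genes exceeded 0.9. For MEPCE they were ZNF282, BORA and ZNF17 (0.99 each), with 13.9% of genes over 0.9. For BRD2 they were KIF22 (0.99), TRA2B (0.98) and TFAM (0.97), with 0.403% over 0.9. BRD3 was most like TUBBP5, NUDT16 and PUDP, LARP7 like ANKRD26, PRIMPOL and EFCAB7, and AFF1 like PPM1G, WRAP53 and JMY. AFF4 was most like TNRC6A, SPIRE1 and FIP1L1, ELL like CLASRP, RSBN1L and TGIF1, and ELL2 like KPNA4, GTF3C5 and AKIRIN1.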

How the data were processed

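Per the submitters' processing notes, the deposited linear intensity values, 1 per probe set and array, came from MAS5, with no version. The sources used here do not give any scaling by the authors between arrays. Values under 1 were raised to 1 and taken to log2 with no rescaling. A gene was named from probe sets with 1 symbol in the platform annotation and represented by its brightest probe set (mean log2 over 21 arrays), and the other probe sets are given beside it. Genes whose highest group mean reached log2 5.84 were kept (12644 of 18132, all 9 genes here). In R 4.3.3, limma 3.58.1 estimated 9 group means on 18 arrays (eBayes with trend, 9 residual degrees of freedom), with Benjamini-Hochberg adjustment within each contrast. The 4-line changes were fitted on 12 means with the line as a term. Of the fits, BT-549 enters only that one. Its arrays also count in the choice of probe set, the level filter and the comparison of profiles. Scripts were tested on simulated data. Alternatives changed the scaling, filter, floor, probe set rule, samples fitted and prior, and left out each array. The genes and lists were chosen with earlier results of these data known. All 9 genes are described, with the 8 listed elongation genes of largest statistic at 250 nM and CDK9, CCNT1 and CCNT2, and the 3 genes closest in profile to each. The other listed genes are counted only.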

Additional observations from a re-analysis of the deposited data

Results flagged for a closer look

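The differences between cell lines that follow passed limma's test of the difference itself (adjusted p under 0.05). At 50 nM, MDA-MB-468 changed relative to the ER+ mean by 0.42 for BRD2, -0.86 for HEXIM1 and -0.74 for MEPCE. At 250 nM the same differences were 0.65 for BRD3, -0.85 for ELL and -0.26 for MEPCE. ZR-75-1 changed relative to T47D at 250 nM by -0.60 for BRD2, -0.64 for BRD3 and -0.57 for MEPCE. Of all genes, 2.48% were lower and 0.403% higher in the first comparison, 5.12% and 13.9% in the second, and 19.8% were lower in the third. No group had enough arrays to look for a sample far from the others.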

How the results depend on the processing

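Of the alternative values for single genes, 3785 kept direction and side of the threshold, 130 lost the call, 59 gained one and 4 turned. The calls of MEPCE and HEXIM1 at 250 nM and of BRD2 at 50 nM in each replicated line were kept under the alternatives run, but with the mean of probe sets the HEXIM1 change shrank to -0.40 in ZR-75-1 and -0.34 in T47D, where 3 of its 5 probe sets were not called lower. The turned values were AFF1 in ZR-75-1 at 250 nM (0.014 with median-centring, 0.24 with quantile normalization) and AFF4 with the mean of probe sets (0.038 in T47D at 250 nM, 0.0087 for ZR-75-1 minus T47D with DMSO). The causes were not tested. The small number of arrays limits the precision.

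Counts that moved by over 1.5 times are given in the order of the lines MDA-MB-468, then ZR-75-1, then T47D. A share given as of the main fit was not taken under the alternative, so it is no like background for the count beside it. With median-centring, 4 of the 9 genes were higher at 50 nM in MDA-MB-468, where 1067 of all genes were lower and 1628 higher, and 630 were lower at 50 nM in T47D. At 250 nM 3466, 3567 and 2440 of all genes were then higher, and of the elongation list 7 and 10 (50 and 250 nM) in MDA-MB-468 and 9 in ZR-75-1 at 250 nM. With quantile normalization, 2 of the 9 were higher in MDA-MB-468 at 50 nM, 1 in ZR-75-1 and 1 in T47D at 250 nM, and 4 lower in T47D at 250 nM (33.7% of all genes in the main fit). Of all genes 3095, 4113 and 3356 were then higher at 250 nM and 542 at 50 nM in T47D, with 6 list genes in MDA-MB-468 and 4 in T47D at 250 nM and 2 in ZR-75-1 at 50 nM. With the mean of probe sets, 0 of the 9 were lower at 50 nM in ZR-75-1 and 1 in T47D, list genes higher were 2 and 1 in ZR-75-1 and 1 and 0 in T47D (50 and 250 nM), and DMSO levels differed for 4 (MDA-MB-468 against ZR-75-1) and 3 (against T47D). In the main fit 30.5% and 36.8% of all genes were lower and 35.5% and 30.8% higher in these DMSO comparisons. Without a trend in eBayes, 1 of the 9 was higher in T47D at 50 nM, and list genes higher were 1 in MDA-MB-468 and 1 in T47D at 250 nM and 2 in ZR-75-1 at 50 nM. With only a line's 6 arrays, 1 of the 9 was lower in T47D at 50 nM, list genes were 2 higher in MDA-MB-468 and 5 lower in T47D at 50 nM, and 339 of all genes were lower and 121 higher in ZR-75-1. Over 4 lines at 50 nM, 0 of the 9 were higher without MDA-MB-468, BT-549 or T47D. Here and below, a count with no share of all genes beside it does not show whether the 9 or the list differ from all genes.

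Leaving out 1 array gave, for all genes higher, 217 to 593 at 50 nM and 746 to 1263 at 250 nM in MDA-MB-468, 135 to 365 at 50 nM in ZR-75-1, and 115 to 255 and 664 to 1255 in T47D. Genes lower at 50 nM were 1189 to 1905, 361 to 754 and 443 to 995. List genes higher were 0 to 4 and 1 to 2 in MDA-MB-468, 1 to 2 in ZR-75-1 at 50 nM and 1 to 3 in T47D at 250 nM. Of the 9, 1 to 2 were higher in MDA-MB-468 and in T47D and 0 to 1 lower in ZR-75-1 at 50 nM, 5 to 8 differed between MDA-MB-468 and ZR-75-1 with DMSO, and 2 to 5 in the MDA-MB-468 response at 250 nM. In the main fit 30.5% of all genes were lower and 35.5% higher in that DMSO comparison, and 5.12% and 13.9% in that response. All genes were not counted under the alternatives for DMSO levels or for differences in response.

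The deviations of the doses paired by replicate number correlated at -0.22 to 0.29. These values cannot decide whether same-numbered arrays shared a culture or a batch. With the replicate block, 2 of the 9 were higher at 50 nM in MDA-MB-468 and 1 lower in T47D, and 1911 of all genes were lower and 592 higher in MDA-MB-468 at 50 nM. With the numbers of ZR-75-1 crossed, chosen after seeing the data, 8 of the 9 were lower at 250 nM (42.8% of all genes in the main fit, a share not taken with the numbers crossed).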
